A study of Homo sapiens with 13 samples.

Results

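Replication-dependent histone genes were examined in MDA-MB-231, an established cell line from a triple-negative breast cancer of the basal B type, grown untreated. The members were the protein-coding genes of GENCODE release 44 on hg19 whose symbol is H1-1 to H1-6 or starts with H2AC, H2BC, H3C or H4C and a digit, which gave 65 of 19894 genes: 6 of the linker histone H1, 16 of H2A, 17 of H2B, 13 of H3 and 13 of H4. Chromatin immunoprecipitation and sequencing had been made with 2 libraries each for H3K4me3, H3K27ac, H3K4me1, RNA polymerase II (Pol II) and CTCF, and 1 library of pooled immunoprecipitations for p300/CBP, and each antibody is represented by 1 list of peak positions from its merged or pooled libraries. The lists hold no height, count or score, so depth is unknown, no error between replicates can be given, and every share below is a description with a 95% Wilson interval that covers counting error only. The label of the line was checked by H3K27ac at gene starts: it touched 5 of 5 genes of mesenchymal basal breast cancer cells (VIM, CD44, EGFR, CAV1 and FOSL1) and 2 of 7 genes of luminal or epithelial cells (KRT18 and ERBB2, and not ESR1, PGR, GATA3, CDH1 or EPCAM).

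Core histones H2A, H2B, H3 and H4 form the nucleosome, and H1 binds the DNA between nucleosomes. The genes that supply them when DNA is copied lie in clusters, mostly lack introns, and give the only metazoan messenger RNAs that end in a conserved stem-loop in place of a poly(A) tail. NPAT, a substrate of cyclin E and CDK2, gathers at these clusters in histone locus bodies, and the stem-loop is bound by SLBP and cut with help of the U7 particle. H3K4me3 and H3K27ac mark active promoters, H3K4me1 is the mark more typical of enhancers and of promoter flanks, p300/CBP are acetyltransferases, and CTCF is an architectural DNA-binding protein.

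The stem-loop was read in the reference genome within the 100 bases after each stop codon, as the first 16 bases that start with GG, pair perfectly over a stem of 6 bases and have a loop of 4 bases starting with TT. It was found after 59 of the 65 members (90.8%, 95% Wilson interval 81.3% to 95.7%) and after 63 of the 19763 protein-coding genes with an annotated stop codon (0.319%), these members included. It began 22 to 67 bases after the stop codon, with a median of 35. The 6 members without a match to this strict form were H2BC10, H2AC11, H2AC15, H3C6, H4C13 and H2BC12L. The 59 matches had 5 forms, shown as DNA on the gene strand with the stem in capitals because they are the shared signature of the set; the number of members is in the sentence that follows.
form 1: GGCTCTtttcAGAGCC
form 2: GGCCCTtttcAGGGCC
form 3: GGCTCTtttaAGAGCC
form 4: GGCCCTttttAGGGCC
form 5: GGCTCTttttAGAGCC
Form 1 stood after 38 members of H1, H2A, H2B and H3, such as H1-2 (chr6:26055972-26055987, hg19, minus strand). Forms 2 and 4, with a GGCCCT stem, stood after 8 and 4 members, each of them an H4 gene. Form 3 stood after 8 members and form 5 after H2AC20 alone.

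Promoter sequence is shown for the first member by position with an H3K4me3 peak in its window in the H1, H2A, H2B and H3 families, as the 150 bases that end just before the transcription start site (TSS) on the gene strand. Capitals mark 7 words that were searched on both strands, with no word containing another. They were TATAAA, the core promoter box of that name, CCAAT, the octamer ATTTGCAT, AAACACA (the AC box of H1 genes), GGTCCG (from the H4 subtype element) and the E2F forms TTTCGCGC and TTTGGCGC.
H1-2: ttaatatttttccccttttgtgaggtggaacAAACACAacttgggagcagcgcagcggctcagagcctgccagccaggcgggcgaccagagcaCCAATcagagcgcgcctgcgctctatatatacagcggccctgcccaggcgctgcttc
H2AC19: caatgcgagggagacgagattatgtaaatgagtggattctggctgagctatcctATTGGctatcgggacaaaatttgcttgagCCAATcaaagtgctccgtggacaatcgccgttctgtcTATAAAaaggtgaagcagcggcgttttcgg
H2BC18: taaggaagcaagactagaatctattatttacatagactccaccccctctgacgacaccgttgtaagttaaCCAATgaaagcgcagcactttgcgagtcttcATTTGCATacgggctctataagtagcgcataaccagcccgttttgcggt
H3C13: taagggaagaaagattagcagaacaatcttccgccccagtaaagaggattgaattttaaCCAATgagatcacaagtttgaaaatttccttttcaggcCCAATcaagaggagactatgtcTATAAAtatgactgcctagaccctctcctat
These are chr6:26056699-26056848 (minus strand), chr1:149822478-149822627 (plus), chr1:149783926-149784075 (minus) and chr1:149785249-149785398 (minus). The TATA box began 30 and 31 bases before the TSS of H2AC19 and H3C13, and the octamer 49 bases before that of H2BC18. 3 H4 promoters are shown because results below turn on them: H4C3 and H4C12 had p300/CBP over the TSS, and H4C4 had no peak.
H4C3: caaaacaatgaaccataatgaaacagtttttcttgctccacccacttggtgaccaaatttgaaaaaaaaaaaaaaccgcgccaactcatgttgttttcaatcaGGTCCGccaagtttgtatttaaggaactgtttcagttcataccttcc
H4C12: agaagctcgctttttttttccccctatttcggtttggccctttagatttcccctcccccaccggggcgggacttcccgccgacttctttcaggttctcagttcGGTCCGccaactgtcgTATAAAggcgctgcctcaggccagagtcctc
H4C4: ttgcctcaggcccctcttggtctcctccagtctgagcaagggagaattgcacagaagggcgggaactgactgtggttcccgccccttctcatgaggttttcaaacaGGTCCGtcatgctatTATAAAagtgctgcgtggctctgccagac
They lie at chr6:26104011-26104160 (plus), chr6:27799339-27799488 (minus) and chr6:26189341-26189490 (minus). GGTCCG stood 47, 47 and 44 bases before the TSS in H4C3, H4C12 and H4C4, so the promoter with no peak held it at nearly the same place as those with p300/CBP.

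Over the 250 bases before the TSS, CCAAT was found in 55 of 65 members (84.6%) and 34.3% of all protein-coding genes, TATAAA in 44 (67.7%) and 9.25%, and the octamer in 25 (38.5%) and 1.53%. The octamer was in 12 of 16 H2A and 13 of 17 H2B promoters and in 0 of the H1, H3 and H4 promoters, and H2A and H2B genes often share their promoter with each other. AAACACA was in 6 of 6 H1 promoters and in 0 of the other families, beside 3.63% of all genes. GGTCCG was in 11 of 13 H4 promoters and in 1 each of the H2A, H2B and H3 promoters, beside 12.15% of all genes. TTTCGCGC was in 12 members (18.5%) and 0.618% of all genes, and TTTGGCGC was in 0 members and 0.729% of all genes. Both strands were searched, so a word in a shared promoter, TATAAA included, counts for both genes whichever way it reads. A match of letters is not a bound site.

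Each gene was read over a 3-kb window centred on the TSS of its canonical transcript, and a peak that overlapped the window by 1 bp or more was taken to touch it. H3K4me3 touched the windows of 38 of the 65 members (58.5%, interval 46.3% to 69.6%), beside 62.7% of all protein-coding genes. H3K27ac and Pol II each touched 37 (56.9%, 44.8% to 68.2%), beside 61.4% and 58.4% of all genes. The intervals hold the share over all genes for each of these lists. Members share windows and peaks, so they are not independent. H3K4me1 touched 19 windows (29.2%, 19.6% to 41.2%), beside 59.3% of all genes, p300/CBP touched 4 (6.15%, 2.42% to 14.8%), beside 0.769%, and CTCF touched 7 (10.8%, 5.32% to 20.6%), beside 17.6%. Among 380 other protein-coding genes with 1 exon and a transcript of up to 1 kb, H3K4me3 touched 39 (10.3%, 7.60% to 13.7%), a share whose interval lay below that of the members; these genes were chosen for comparison after the data had been seen. In the same 380 genes p300/CBP touched 24 (6.32%, 4.28% to 9.22%), but 8 of the 24 had the whole transcript under p300/CBP peaks, which were up to 16600 bp wide. Mitochondrial genes were not removed from the 380 or from all protein-coding genes, and 2 peaks of the lists ran past the end of the mitochondrial chromosome. How much such genes add to these p300/CBP shares was not tested, so the members are not ranked against the 380 here. H3K4me1 touched 67 of the 380 (17.6%, 14.1% to 21.8%) and CTCF 12 (3.16%, 1.82% to 5.44%), so for these lists the members stood below all genes but above other short genes. The intervals of members and other short genes overlapped for both lists. Those of members and all genes overlapped for CTCF and not for H3K4me1.

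The 3 lists nearly always came together. The windows of 37 members held H3K4me3, H3K27ac and Pol II, 27 held none of them, and only H2BC10 held some, with an H3K4me3 peak of 550 bp that began 942 bp downstream of its TSS beside an H3K4me1 peak of 1550 bp. None of the 65 fell into another combination. Over all genes, 56.2% held all 3 and 34.25% none. By family, the windows of 2 of 6 H1, 11 of 16 H2A, 13 of 17 H2B, 6 of 13 H3 and 6 of 13 H4 genes held H3K4me3. The H1 genes with a peak were H1-2 and H1-4, and H1-1, H1-3, H1-5 and H1-6 (the testis form of H1) had none.

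**Figure D1:**
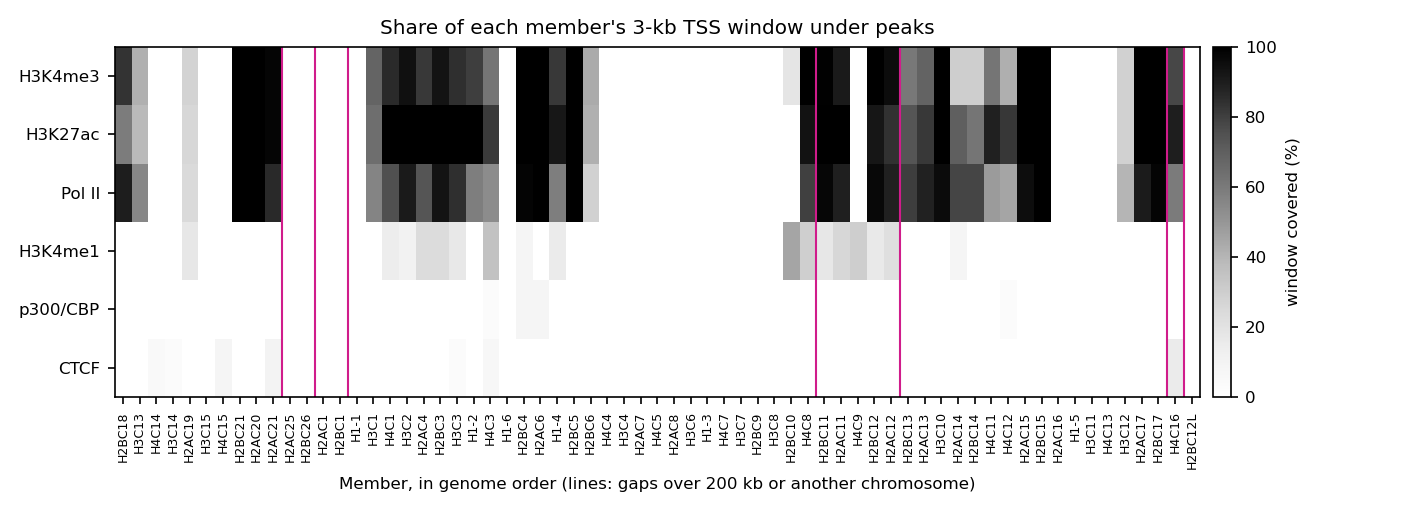
Share of each member's 3-kb window under peaks of each list (grey scale, 0 to 100%), with the 65 members in genome order on the x axis and the 6 lists on the y axis. Marked and unmarked members form runs, with 11 unmarked neighbours from H4C4 to H3C8, and the narrow p300/CBP and CTCF peaks cover at most 15% of a window.

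The members without H3K4me3, H3K27ac and Pol II mostly lay next to each other. With members split where successive TSSs were over 200 kb apart, the genes formed 8 blocks. Chromosome 1 held 10 members from H2BC18 to H2AC21 (TSSs over 75.6 kb) and the pair H2AC25 and H2BC26. Chromosome 6 held the pair H2AC1 and H2BC1 and blocks of 28 members from H1-1 to H4C8 (267.7 kb), 5 from H2BC11 to H2AC12 (14.3 kb) and 16 from H2BC13 to H2BC17 (85.5 kb), and H4C16 on chromosome 12 and H2BC12L on chromosome 21 stood alone. In the block of 28, the first 15 members, from H1-1 to H2BC6, held 13 marked genes, and H1-1 and H1-6 were the exceptions. The next 11 were unmarked: H4C4, H3C4, H2AC7, H4C5, H2AC8, H3C6, H1-3, H4C7, H3C7, H2BC9 and H3C8, with TSSs from 26189340 to 26271641 on chromosome 6. No peak of any of the 6 lists lay at chr6:26184751-26268900, a stretch of 84150 bp that holds the TSSs of 10 of these 11 members. Its left edge is the end of the Pol II peak at H2BC6. At 850 bp that peak was the narrowest when only the widest Pol II peak at each member was taken.

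The stretch was set beside all others of the lists. Of 121967 stretches between successive peaks of the 6 lists pooled, 6165 (5.055%) were at least as long, and they held the TSSs of 1659 protein-coding genes (8.34%). Only 9 stretches of any length, this one included, held 11 or more protein-coding genes. The 11 genes here were the 10 members and a further protein-coding gene with the same TSS as H2AC7, so that TSS was counted for both. In the windows of the 11 unmarked members from H4C4 to H3C8, the 50-base words occurred once in the reference for 94.8% to 100% of positions. Whether the DNA of this stretch is present in the line was not tested, since input reads were not analysed here, and a signal below the threshold cannot be told apart from none.

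A similar run lay in the block of 16. H2AC16, H1-5, H3C11 and H4C13 had no peak of any list, within a peak-free stretch of 48850 bp at chr6:27809001-27857850, and their windows were 98.4% to 100% unique. The marked H2AC15 and H2BC15 stood before it and H3C12, H2AC17 and H2BC17 after it. The divergent pairs H2AC1 and H2BC1 (testis forms) and H2AC25 and H2BC26 had no peak of any list, and neither had H2BC12L. H4C9 held an H3K4me1 peak of 900 bp that covered its whole transcript and no other peak, and it was the only member whose TSS lay under H3K4me1.

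**Figure D2:**
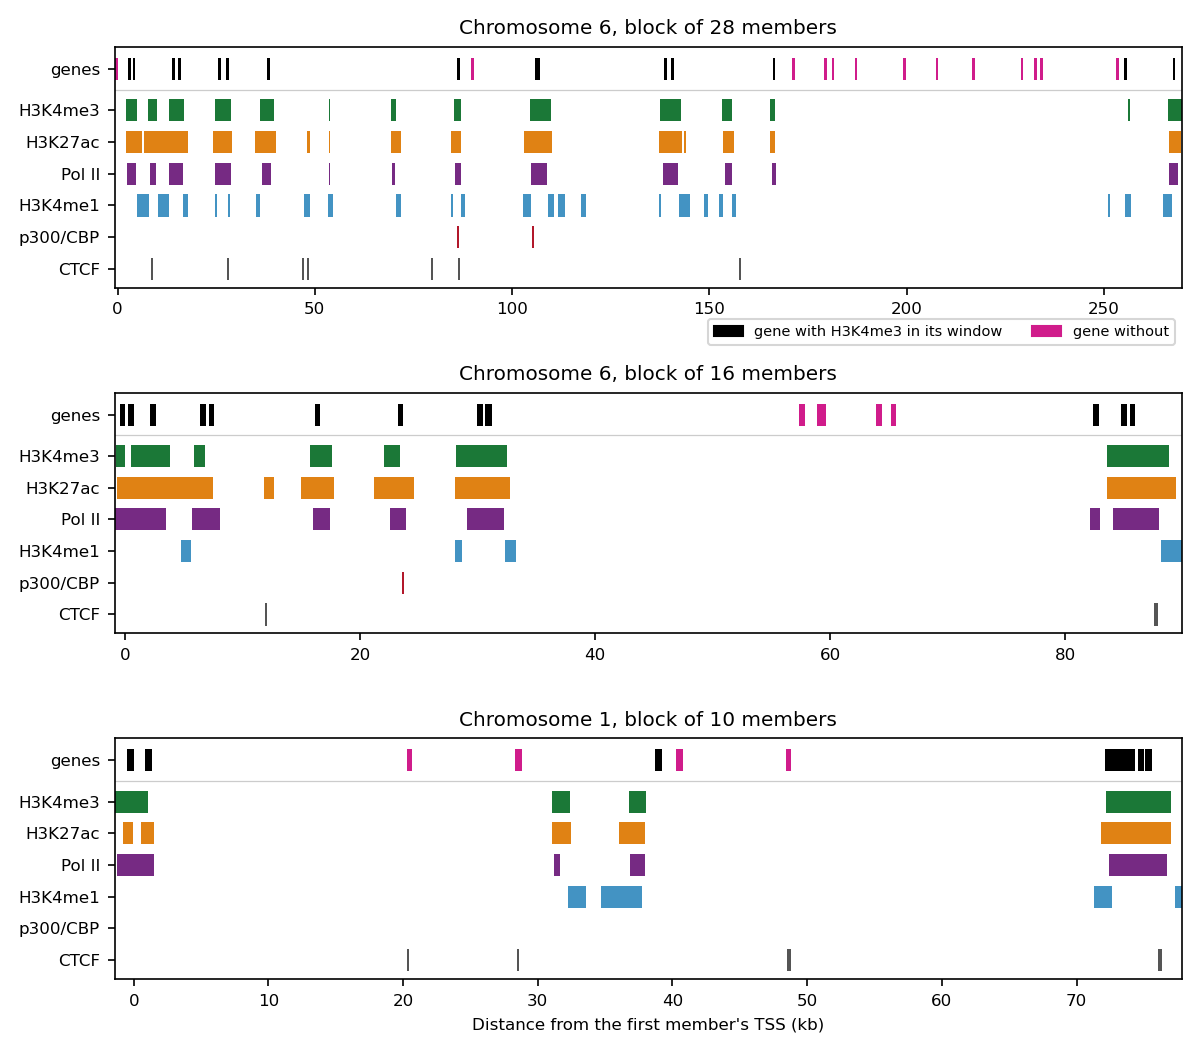
Peaks of the 6 lists (coloured bars) and members (top row of each panel; black with H3K4me3 in the window, magenta without) over the 3 largest blocks, against distance in kb from the first member's TSS. The block of 28 members has no bar of any list for 84150 bp, and the block of 16 for 48850 bp, beneath unmarked genes.

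7 members on chromosome 1 had windows in which under 50% of the 50-base words were unique, beside 3.03% of all genes, and the authors kept only uniquely mapped reads. H4C14, H3C14, H3C15 and H4C15 had 0% unique words, and the windows of H4C14 and H4C15 were identical over all 3000 bases. None of these 4 had H3K4me3, H3K27ac or Pol II in the window. CTCF peaks of 100 or 150 bp lay within the transcripts of H4C14, H3C14 and H4C15, with 2 of them in H4C15, although no 50-base word there was unique; how those reads were placed was not tested. H2BC18, H3C13 and H2AC19, with 35.04%, 31.4% and 25.1% unique words, held all 3 lists, but the peaks of H2AC19 ended at least 678 bp before its TSS. For the 4 genes at 0% the absence of a peak cannot be told apart from reads that could not be placed. Among the other 58 members, H3K4me3 touched 35 (60.3%).

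Where members were marked, the peaks were wide. The widest H3K4me3 peak at a member's window had a median of 3800 bp (quartiles 2500 to 4712.5, n = 38), beside 2250 bp over the 12472 genes with such a peak. H3K27ac peaks had a median of 5200 bp (n = 37) beside 2100 bp, and Pol II peaks 3150 bp (n = 37) beside 1100 bp. Over the other short single-exon genes the medians were nearer, at 2650 bp for H3K4me3 (n = 39), 2750 bp for H3K27ac (n = 44) and 2525 bp for Pol II (n = 46). Their Pol II widths were far more spread, with an upper quartile of 14050 bp and a maximum of 32500 bp, beside 4000 and 4400 bp at members. H3K4me1 peaks were narrower than over all genes, with medians of 1150 bp (n = 19) and 1600 bp. Several members often lay under the same peak: 29 of 38 (76.3%, 60.8% to 87.0%) shared their H3K4me3 peak with another member, where 23.2% of all genes with such a peak shared it with another protein-coding gene. Counted once each, the 23 H3K4me3 peaks that touched a member window had a median of 3300 bp, the 21 H3K27ac peaks 3850 bp and the 22 Pol II peaks 2550 bp. All were above the medians of 1150, 1300 and 850 bp over the whole lists, which also hold peaks away from gene starts. The 16 H3K4me1 peaks had a median of 1100 bp, close to the 1200 bp over their whole list.

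**Figure D3:**
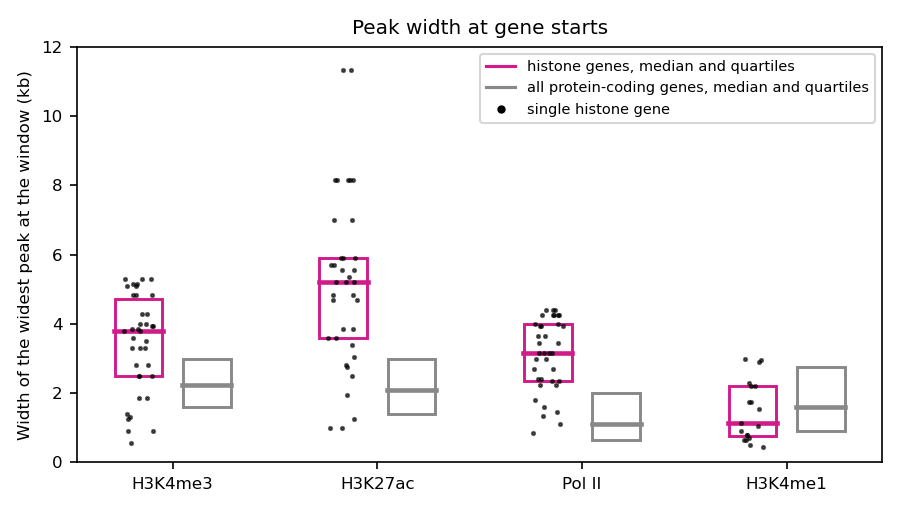
Width in kb of the widest peak touching a window, with boxes for quartiles and a thick line for the median of the histone genes (magenta) and all protein-coding genes (grey), and a black point for each histone gene. Medians of the histone genes are higher for H3K4me3, H3K27ac and Pol II and lower for H3K4me1, and points at the same height are often members under the same peak.

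The widest H3K4me3 peak, of 5300 bp at chr6:27859251-27864551, touched H3C12, H2AC17 and H2BC17, and 1.83% of the list was as wide. The widest H3K27ac peak, of 11350 bp at chr6:26024651-26036001, touched H3C2 and H2AC4, and 0.349% of that list was as wide. The widest Pol II peak, of 4400 bp at chr6:27774801-27779201, touched H2BC13, H2AC13 and H3C10, and 7.61% of that list was as wide. At these 3 genes H3K27ac formed a peak of 8150 bp that also reached H2AC14 and H2BC14, the most members under any peak (5).

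Pol II peaks ran through the genes and past their ends. The whole canonical transcript lay under Pol II peaks for 35 of 65 members (53.85%), beside 3.36% of all protein-coding genes, whose transcripts are longer, and 8.95% of the 380 other short single-exon genes. Member transcripts were 386 to 2224 bases long. From the 36 TSSs under Pol II, the peak extended a median of 1421 bp upstream and 1362 bp downstream, and passed the transcript end by a median of 889 bp. Over the 10185 genes with Pol II at the TSS it extended 523 bp upstream and 456 bp downstream. H3K4me3 passed the transcript end of members by a median of 1226 bp and H3K27ac by 1873 bp. Upstream of a member the peak often covered a neighbouring histone gene, so these lengths do not belong to single genes.

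The profile around the TSS differed in shape as well as in width. Pol II covered 55.4% of members and 51.2% of all genes at the TSS, but 55.4% and 24.8% at 500 bp downstream, and 46.15% and 13.4% at 1000 bp. H3K27ac covered 30.8% of members and 8.80% of all genes at 2000 bp upstream. H3K4me1 covered 1.54% of members at the TSS and 15.4% at 1700 bp downstream, where all genes stood at 8.37% and 37.0%. Further out the shares were closer. H3K4me1 covered 24.6% of members and 26.6% of all genes at 2850 bp downstream, and 18.5% and 16.8% at 2700 bp upstream.

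**Figure D4:**
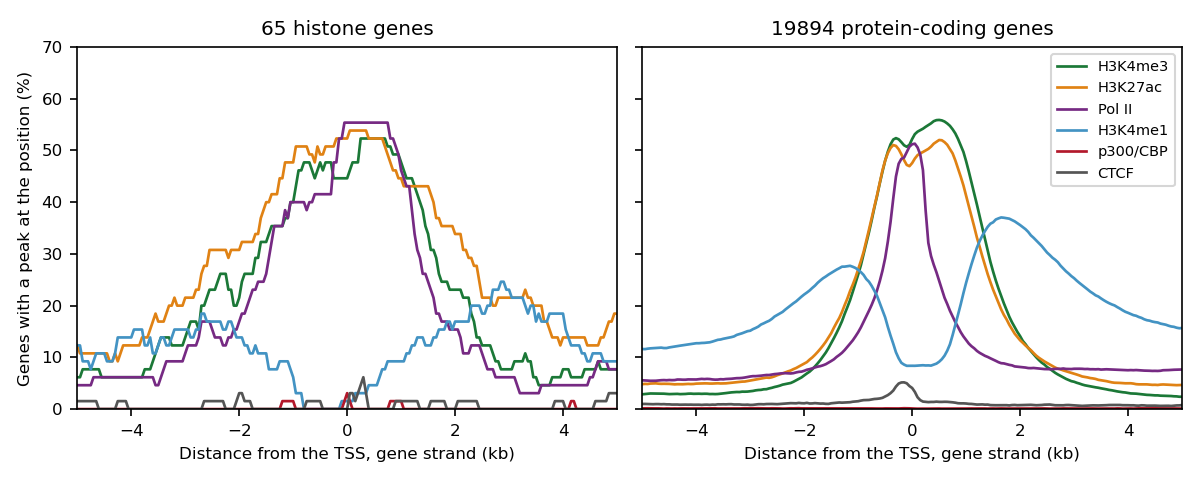
Percent of genes with a peak at each 50-bp step from 5 kb upstream to 5 kb downstream of the TSS (x axis in kb, gene strand), for the 65 members (left) and all 19894 genes (right), 1 line per list. The Pol II line of the members stays at 55.4% from the TSS to 500 bp downstream, where that of all genes falls from 51.2% to 24.8%.

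The linker genes H1-2 and H1-4, which encode somatic H1 forms, had H3K4me3 peaks of 3600 and 5100 bp, H3K27ac peaks of 5350 and 5700 bp and Pol II peaks of 2400 and 3650 bp, and each of these covered the TSS and the whole transcript. In both, Pol II began close before the TSS, 252 and 256 bp upstream, and ran 2147 and 3393 bp downstream. The H1-4 peaks continued into H2BC5, whose TSS lies 1793 bp further along.

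The 6 marked H4 genes had the narrowest peaks of the families, with median widths of 2175 bp for H3K4me3, 2925 bp for H3K27ac and 1700 bp for Pol II, beside medians of 3550 to 4350 bp for H3K4me3 in the other families. H3K4me3 measured 1400 bp at H4C12, 1850 bp at H4C3 and at H4C11, 2500 bp at H4C16, 2800 bp at H4C1 and 3500 bp at H4C8. H4C1 lay under the same peaks as H3C1, and the other 5 shared their H3K4me3 peak with no member. Pol II covered the TSS and the whole transcript of all 6, from 169 bp (H4C11) to 1376 bp (H4C1) upstream of the TSS. H4 genes are not arranged in divergent pairs.

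The 6 marked H3 genes each shared peaks with an H2A, H2B or H4 gene. H3C2 and H2AC4, H2BC3 and H3C3, and H3C1 and H4C1 lay under H3K4me3 peaks of 3800, 4000 and 2800 bp, and H3C10 under the peak of 3300 bp that also touched H2BC13 and H2AC13. At H3C12 the peak of 5300 bp ended 647 bp upstream of the TSS, over H2AC17 and H2BC17, and a second Pol II peak covered the whole H3C12 transcript without H3K4me3 or H3K27ac over it. At H3C13 the H3K4me3 peak lay downstream, from 248 bp after the TSS.

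10 pairs of members were transcribed away from each other from TSSs 194 to 251 bp apart, each an H2A gene with an H2B gene. 8 pairs had peaks, and in each of the 8 at least 1 peak of each of H3K4me3, H3K27ac and Pol II touched both windows. The 3-kb windows of a pair overlap over most of their length, so a peak that touches both is nearly given by the layout. Pol II and H3K27ac covered both TSSs in 8 pairs, H3K4me3 in 6 and H3K4me1 in 0. The paired peaks of H3K4me3 measured 3850 bp at H2BC11 and H2AC11, 3950 bp at H2BC12 and H2AC12, 4300 bp at H2AC15 and H2BC15, 4850 bp at H2BC21 and H2AC20 and 5300 bp at H2AC17 and H2BC17. In the other 2 of the 8, H2BC13 with H2AC13 and H2AC14 with H2BC14, Pol II and H3K27ac covered both TSSs and H3K4me3 neither. The sequence between H2BC4 and H2AC6, which is 245 bases at chr6:26124155-26124399 on the plus strand, is shown as an example with the same words in capitals; H2BC4 reads to the left and H2AC6 to the right.
H2BC4-H2AC6: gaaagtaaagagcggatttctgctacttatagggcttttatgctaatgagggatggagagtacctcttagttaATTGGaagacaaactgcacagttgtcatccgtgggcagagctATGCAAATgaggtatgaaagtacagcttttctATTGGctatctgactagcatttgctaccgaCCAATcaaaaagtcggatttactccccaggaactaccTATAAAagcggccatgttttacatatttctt
It held CCAAT at 3 places, the octamer on the minus strand and TATAAA 31 bases before the TSS of H2AC6. H3K4me3 (5150 bp), H3K27ac (7000 bp) and Pol II (4250 bp) peaks covered both genes entirely.

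p300/CBP lay at 4 members under 3 peaks. A peak of 100 bp covered the TSS of H4C3 and another of 100 bp that of H4C12. So 2 of 13 H4 genes (15.4%, 4.33% to 42.2%) carried p300/CBP at the TSS, beside 0.131% of all genes and 2.105% of the other short single-exon genes. Mitochondrial genes were not removed from these last 2 shares, and their part was not tested. The smallest p300/CBP width at any gene window was also 100 bp, and the list came from 1 library of pooled immunoprecipitations. The peak shared by H2BC4 and H2AC6, of 250 bp at chr6:26123151-26123401, began 754 bp downstream of the TSS of H2BC4, past the end of its transcript. All 4 genes also held H3K4me3, H3K27ac and Pol II. H3K4me3 at H4C12 began 238 bp downstream of the TSS and left the p300/CBP peak uncovered.

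CTCF lay at 7 members, H4C14, H3C14, H4C15 and H2AC21 on chromosome 1, H3C3 and H4C3 on chromosome 6 and H4C16 on chromosome 12, and covered the TSS of none, where it covered that of 4.08% of all genes. In H3C3 and H4C3, as in H4C14, H3C14 and H4C15, the peaks lay inside the transcript. H4C16, outside the clusters, held H3K4me3 (2500 bp), H3K27ac (2800 bp) and Pol II (1800 bp) over its whole transcript and the widest CTCF peak at a member (450 bp), which began 865 bp downstream of its TSS. H4C3 was the only member touched by all 6 lists.

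Elements of the promoter sequence were set beside the marks. Among the 38 members with H3K4me3, H3K27ac or Pol II, 30 held TATAAA (78.9%, 63.6% to 88.9%), as did 14 of the 27 with none (51.9%, 34.0% to 69.3%). The octamer was in 18 of 38 and 7 of 27, CCAAT in 34 of 38 and 21 of 27, and TTTCGCGC in 10 of 38 and 2 of 27. The intervals of marked and unmarked members overlapped for each of these words. The stem-loop stood after 35 of 38 and 24 of 27 members, and both groups were far above the 0.319% of all genes. Families differ in both words and marks, and a word between the TSSs of a divergent pair counts for both genes. The 27 include H4C14, H3C14, H3C15 and H4C15, whose missing peaks cannot be told apart from reads that could not be placed. The part of these was not tested.

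**Figure D5:**
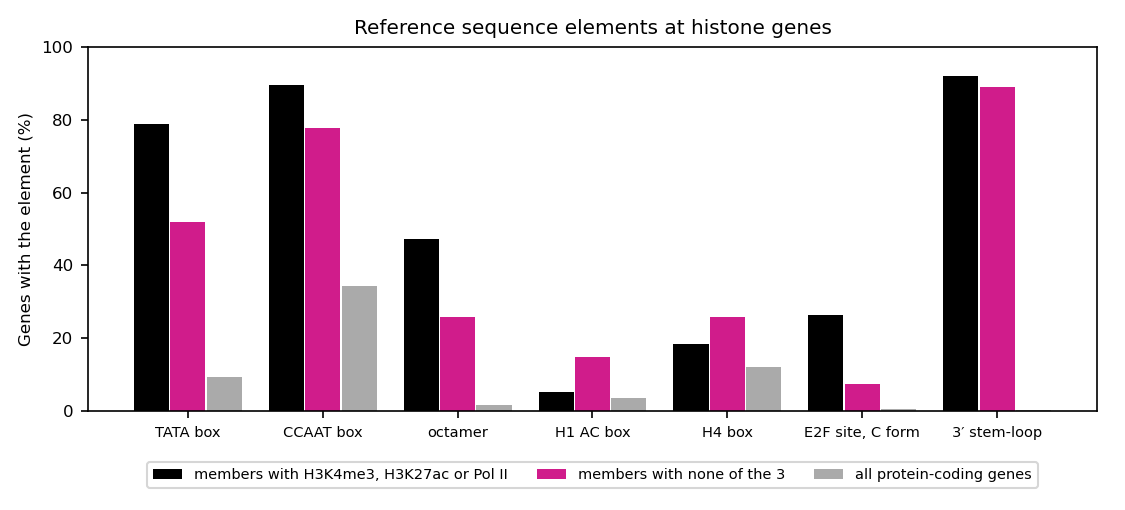
Percent of genes (y axis) with each promoter word in the 250 bases before the TSS, or with the stem-loop in the 100 bases after the stop codon, for members with and without H3K4me3, H3K27ac or Pol II and for all protein-coding genes. The stem-loop stood after 92.1% of marked and 88.9% of unmarked members and is too rare over all genes (0.319%) for its bar to be seen.

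Most genes of 3 short, chosen lists related to histones were marked. Over all protein-coding genes, H3K4me3 touched 62.7%, H3K27ac 61.4% and Pol II 58.4% of windows. H3K4me3 and H3K27ac touched 12 of 12 and Pol II 11 of 12 windows in a list of factors of histone gene expression, among them NPAT, SLBP and the U7 subunit genes LSM10 and LSM11. LSM11 was the gene without Pol II. Of 11 replication-independent variant genes, such as H3-3A, H3-3B, H2AZ1 and H2AZ2, 10 held all 3 lists, with MACROH2A2 as the exception, and 6 of 6 histone chaperone genes did, such as NASP and ASF1A. H3K4me3 peaks over the 3 lists had medians of 2050, 2850 and 2750 bp, all below the 3800 bp of the members. Those of H3K27ac were 2075, 3050 and 2150 bp, below the 5200 bp of the members. For Pol II the medians were 1200, 3400 and 1250 bp, so that of the variant genes was above the 3150 bp of the members, and 5 of the 11 variant genes (45.45%) had their whole transcript under Pol II. p300/CBP touched none of these genes. Of 20 other protein-coding genes between members on chromosome 6, such as TRIM38, HFE, BTN3A2 and BTN2A2, 12 held each of H3K4me3, H3K27ac and Pol II, with medians of 1725, 1850 and 725 bp, and their bodies were wholly under Pol II in 0 cases.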

How the data were processed

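ChIP-seq had been made in MDA-MB-231 cells, with 2 libraries per antibody (1 for p300/CBP) and 2 input libraries, which were not analysed here. The authors kept uniquely mapped reads on hg19, placed with BWA-backtrack according to the methods (Bowtie2 according to the labels), made a signal in 50-bp bins with PASHA, merged replicates and called peaks by thresholding (30 for H3K4me3 and H3K4me1, 50 for H3K27ac, Pol II and CTCF, 60 for p300/CBP). The deposited lists hold positions only, so depth is unknown. Those of p300/CBP, Pol II and CTCF held 13984, 26065 and 39596 peaks, more than the paper reports for each. Background subtraction is named for the lists of H3K4me3, H3K27ac, H3K4me1 and p300/CBP, and not for those of Pol II and CTCF. A wide maximum gap (500 bp for H3K4me3 and H3K27ac, 800 bp for Pol II, 1000 bp for H3K4me1) joins neighbouring signal into wide peaks.

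Every peak edge was 1 past a multiple of 50, and the end was taken as the first base after the peak. Genes were from GENCODE release 44 mapped to GRCh37. Peak positions fitted its chromosome lengths except for 2 peaks on the mitochondrial chromosome. H2AC18, H2BC7, H2BC8, H4C2 and H4C6, which RefSeq lists, were not analysed here. Sequences were read from GRCh37, and uniqueness was the share of 50-base words of a window that occur once in it on either strand. Members and lists were chosen with earlier results of these data known. Members named singly were those without H3K4me3, H3K27ac and Pol II, those with p300/CBP or CTCF, those under the widest peaks, those outside the clusters, those with under 50% unique words and the pair with identical windows, and further members were named after their values were seen; other lists were named in their written order. No column of values was left unmapped (0). Interval, word and motif functions were tested on simulated data, with 6000 comparisons for the intervals. Python 3.11.15, NumPy 2.4.6, pandas 2.3.3, numba 0.67.0 and SciPy 1.17.1 were used, and matplotlib 3.10.9 for figures. With merged lists no test between groups was made, and alternatives changed the window, the overlap, the peaks kept, the annotation and the members. A further promoter sequence, beside those shown, is not reported here.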

Additional observations from a re-analysis of the deposited data

How the results depend on the processing

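Of 67 alternative values, 45 stayed within the counting interval or at the same width and 22 moved. With the TSS base in place of the window, the shares were 44.6% for H3K4me3, 1.54% for H3K4me1 and 0% for CTCF. With 50% of the window covered they were 46.15% for H3K4me3 and 0% for H3K4me1, p300/CBP and CTCF. Peaks at members were at most 250 bp wide for p300/CBP and 450 bp for CTCF, too narrow to cover that much. A 1-kb window gave 4.615% for H3K4me1. Peak centres in the window gave 43.1% for H3K27ac and 13.85% for H3K4me1, and peaks at least as wide as their list's median gave 13.85% for H3K4me1 and 3.08% for CTCF. The median width of H3K4me3 was 3950 bp over the TSS, 3400 bp with each member’s widest peak counted once (22 peaks, which leaves out narrower peaks in the same windows), and 3850 bp with wide peaks or unique windows. That of H3K27ac was 4275 bp with each widest peak once (20 peaks) and 5275 bp with wide peaks or unique windows, and that of Pol II 2700 bp with each widest peak once (21 peaks) and 3300 bp with unique windows. With each gene's span over all transcripts, chosen after seeing the data, Pol II covered 38.5% of members wholly. The cause was not tested for the values that moved. No paired analysis was possible because each antibody has 1 merged list, which also prevents leaving out a replicate. Depth is unknown, so a window without a peak may hold signal under the threshold.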
